A study of Mus musculus with 6 samples.

Results

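The Rab GTPases, the small GTP-binding proteins that direct vesicle traffic, were compared between blood T cell fractions of the mouse that carried or lacked surface CD11c. A gene was taken as a member where its symbol was Rab followed by a number, with or without a letter and a further digit, and where at least 1 probe set of the array named that gene alone. This gave 55 Rab genes, measured by 99 probe sets, out of 17097 genes and 45141 probe sets on the array. Where several probe sets named a gene, the brightest on average across the 6 arrays stood for it.

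Rab proteins act as switches on membranes. A lipid tail added by the prenylation machinery anchors them, an exchange factor loads them with GTP, effectors such as tethers and motors then bind, and a GTPase-activating protein returns them to the GDP form, which a GDP dissociation inhibitor extracts from the membrane. Each Rab marks its own compartment, and in lymphocytes the family is known for the recycling of surface receptors and, through Rab27a, for the docking of cytotoxic granules.

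Female C57BL/6 mice of 6 to 8 weeks, all of them given 3 mg of Depo-Provera (medroxyprogesterone acetate, a progestin) 5 days before euthanasia by the labels (the study's methods give another interval), supplied the blood. From each of 3 mice, called A, C and D, effector memory T cells (CD3+, CD62L- and CD44 high) were separated by flow cytometry into CD11c+ and CD11c- fractions, with 300 cells in each, the RNA was amplified over 24 cycles, and each sample was hybridised to 1 array, so n = 3 per fraction. All values are log2 signals after robust multi-array averaging (RMA), and all differences are CD11c+ minus CD11c- on that scale, so 1 unit is a 2-fold difference. Adjusted p-values come from limma fitted to all probe sets with the mouse as a block and adjusted by Benjamini-Hochberg, with a threshold of 0.05.

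The CD11c+ and CD11c- arrays were set against their labels and against marker genes of other cell types. Itgax, which encodes CD11c, measured 8.93, 9.06 and 8.93 in the CD11c+ fractions of mice A, C and D, against 5.80, 3.88 and 4.12 in the CD11c- fractions (adjusted p = 0.0387). The CD3 chain gene Cd3e averaged 10.61 ± 0.05 in CD11c+ and 11.10 ± 0.03 in CD11c- fractions (SD, n = 3 each). In the counts of markers here and below, higher and lower mean an adjusted p under 0.05, which 1.40% and 0.222% of all genes met. Among markers of basophils and mast cells 10 of 14 were higher in CD11c+ and none was lower. Among those of monocytes and macrophages 15 of 24 were higher and none was lower. Regardless of that threshold, 23 of the 24 lay above CD11c- in 3 of 3 mice and 1, Ms4a6c, lay below it in 3 of 3 mice. Of the T cell markers, 2 of 12 were lower in CD11c+ and none was higher. The differences of all 12 ran from -1.85 to -0.49, and 10 were lower in 3 of 3 mice. A probe set was called above background where its mean in a fraction exceeded 5.58, a level that 95% of 38 genes typical of other tissues did not reach. Counted from that level, Itgax was at least 10.01-fold higher in CD11c+ fractions. By the same level 25 Rab genes were above background in both fractions, 2 in CD11c+ only (Rab44 and Rab31), 1 in CD11c- only (Rab23) and 27 in neither. A dim probe set does not show that a gene was silent, since Rab1a and Rab5a, which most cells use, were among those 27.

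Rab44 was the member that passed the test. It encodes a large Rab with calcium-binding EF hands, known in mouse mast cells for a part in granule release. Its only probe set measured 8.78, 9.54 and 9.80 in the CD11c+ fractions of mice A, C and D, against 4.14, 4.44 and 4.38 in the CD11c- fractions. All CD11c+ arrays lay above all CD11c- arrays, and the lowest CD11c+ value was that of mouse A. The difference was 5.05 (SE 0.20, 95% interval 4.53 to 5.58, adjusted p = 0.00554), from means of 9.37 ± 0.53 in CD11c+ and 4.32 ± 0.16 in CD11c- fractions (SD, n = 3 each). Because the CD11c- mean lay under the background level, Rab44 was at least 13.9-fold higher in CD11c+ fractions, counted from that level. Without mouse A the difference was 5.26 with an adjusted p of 0.0848, a setting in which no probe set of the array passed the threshold. In sorted bulk samples of this kind, fewer cells of a type and less RNA per cell cannot be told apart.

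Several of the marker lists, though not all, were high in the same arrays as Rab44. The mean level of the 14 basophil and mast cell markers was 7.19, 7.79 and 7.85 in the CD11c+ fractions of mice A, C and D, against 4.04, 3.89 and 4.02 in the CD11c- fractions. Of this list, 11 markers were above background in the CD11c+ fractions and none was in the CD11c- fractions. Counted from the background level, Ms4a2, the beta chain of the IgE receptor, was at least 14.2-fold higher in CD11c+, the transcription factor Gata2 at least 19.4-fold and the mast cell protease Cpa3 at least 7.44-fold, whereas Kit and Tpsb2, which define tissue mast cells, were not above background in either fraction. The 24 monocyte and macrophage markers averaged 8.08 to 8.30 in CD11c+ and 5.32 to 5.41 in CD11c- fractions. The 10 markers of conventional dendritic cells averaged 6.91 to 7.42 in CD11c+ and 5.14 to 5.17 in CD11c- fractions, with 3 of them higher. For natural killer cells 5 of 10 markers were higher and 1 was lower, at 7.98 to 8.05 in CD11c+ and 6.45 to 6.48 in CD11c- fractions. The 11 B cell markers, of which 2 were higher and none was lower, averaged 6.50, 6.08 and 5.55 in the CD11c+ fractions of mice A, C and D, against 4.85, 5.22 and 4.76 in the CD11c- fractions. Mouse A was the lowest CD11c+ fraction for Rab44 and for the basophil, monocyte, dendritic cell, natural killer cell and platelet lists and the mean of the 55 Rab genes, Rab44 included, and the highest for the B cell, T cell and neutrophil lists. Gaps were small for the natural killer cell list (7.98, 8.00 and 8.05 in CD11c+ of mice A, C and D) and the neutrophil list (4.42, 4.37 and 4.38). In the erythroid list mouse A lay in the middle (5.51, 5.73 and 5.22). The neutrophil, platelet and erythroid lists had medians of -0.07, 0.03 and -0.01, and the T cell list one of -0.89. In the neutrophil list 1 of 11 markers was higher (Csf3r), as was 1 of 11 in the platelet list (Itga2b). None of either list was lower, and none of the 5 erythroid markers passed. The part of these cell types in the Rab44 difference was not tested.

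**Figure D1:**
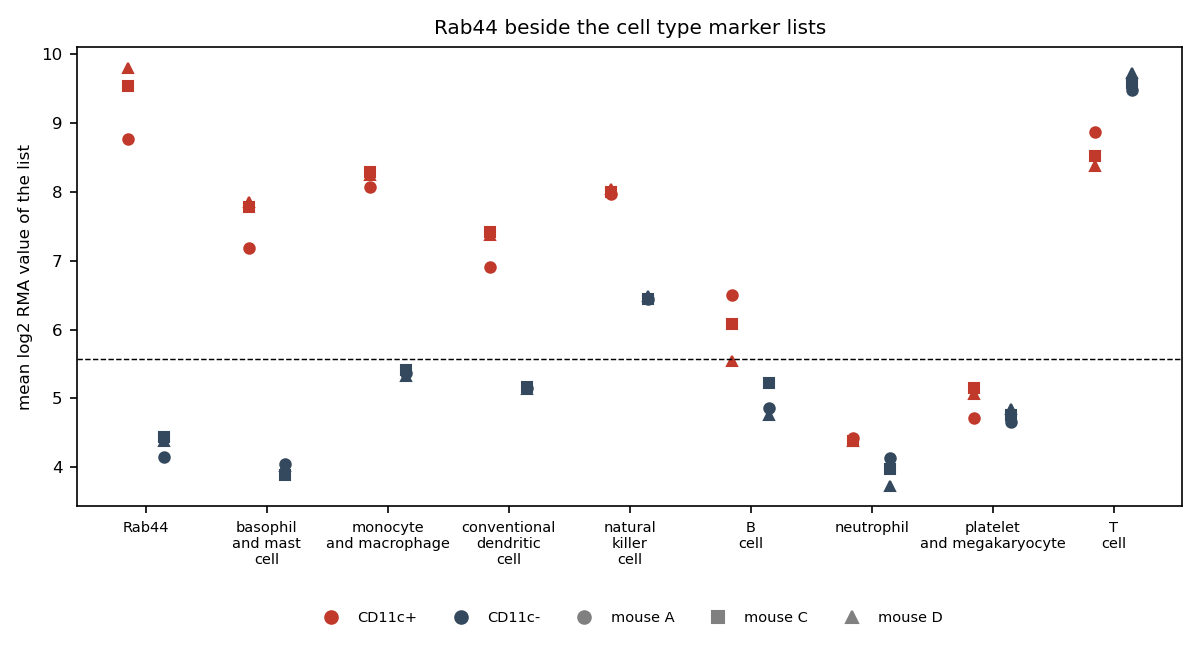
Log2 RMA value of Rab44 and mean log2 RMA value of each marker list (vertical axis) in the 3 CD11c+ arrays (red) and the 3 CD11c- arrays (blue), with 1 symbol per mouse and the background level of 5.58 as a dashed line. Rab44 and the basophil, monocyte and dendritic cell lists lie above the line in all CD11c+ arrays and below it in all CD11c- arrays, and the T cell list lies lower in CD11c+.

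Over all 55 Rab genes, 1 was higher in CD11c+ and none was lower at an adjusted p under 0.05, which is 1.82% and 0% of the members, against 1.40% and 0.222% of all genes. At an unadjusted p under 0.05, 8 Rab genes were higher (14.5%, against 7.38% of all genes) and 2 were lower (3.64%, against 7.44%). The fractions did not overlap for 8 Rab genes that were higher in CD11c+ (14.5%, against 7.48%) and for 5 that were lower (9.09%, against 12.5%). In 3 of 3 mice 11 Rab genes were higher in CD11c+ (20.0%, against 12.6%) and 10 were lower (18.2%, against 26.5%), while 34 did not keep 1 direction. The median difference was 0.06 for the Rab genes and -0.09 for all genes. The median size of a difference, regardless of sign, was 0.20 for the Rab genes and 0.18 for all genes, and 5 Rab genes (9.09%) exceeded 1 log2 unit, against 5.78% of all genes. By mouse, the Rab median was -0.06 in A, 0.06 in C and 0.13 in D, against -0.17, -0.04 and -0.02 for all genes. After Rab44, the next largest difference in the family was 2.30.

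**Figure D2:**
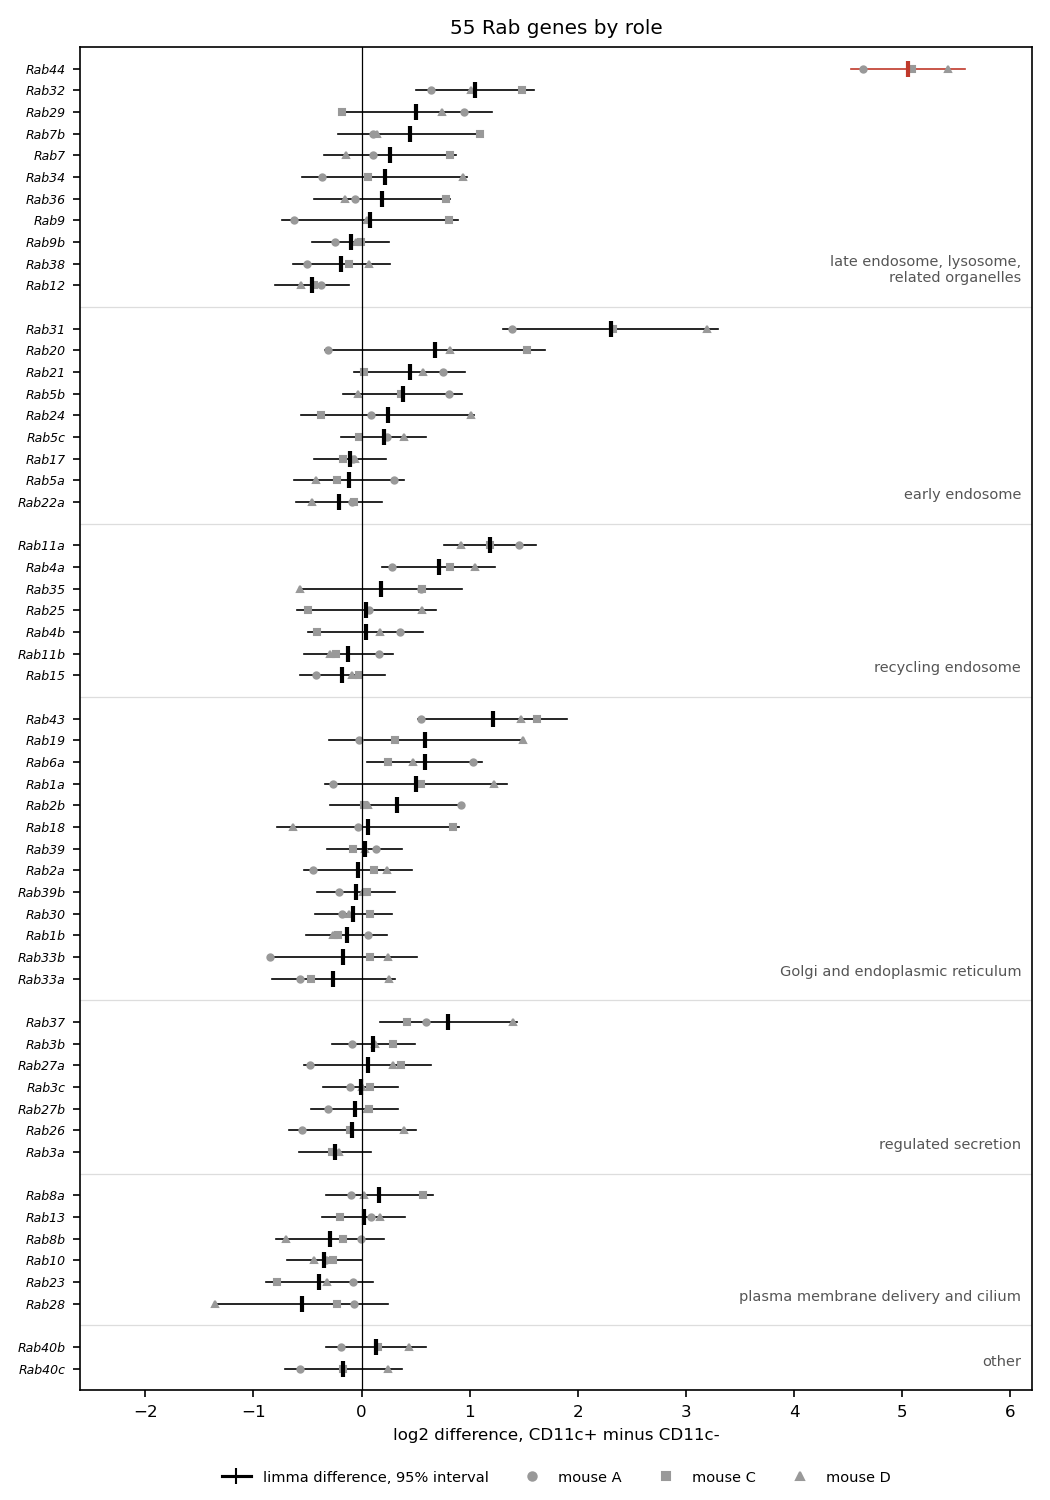
Log2 difference, CD11c+ minus CD11c- (horizontal axis), of the 55 Rab genes grouped by role; the vertical mark is the limma difference, the line its 95% interval and the grey symbols the mice. Rab44, in red, lies at 5.05 and the other members between -0.55 and 2.30.

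The members of late endosomes, lysosomes and related organelles, to which Rab44 was assigned, numbered 11 and had a median difference of 0.21. Rab7, which drives the maturation of late endosomes and their fusion with lysosomes, was bright in both fractions, at 8.75, 8.72 and 8.59 in CD11c+ and 8.64, 7.90 and 8.73 in CD11c- fractions of mice A, C and D. The values overlapped, and the interval of the difference ran from -0.35 to 0.88. Its other probe set was higher in 3 of 3 mice, by 0.18 (adjusted p = 0.645). Rab32, known for traffic to melanosomes and other lysosome-related organelles, measured 3.67, 4.62 and 4.29 in CD11c+ and 3.03, 3.14 and 3.28 in CD11c- fractions. These did not overlap and differed by 1.05 (adjusted p = 0.133), but all lay below background. Rab38, its close relative, differed by -0.19, also below background. Rab12, which takes part in the delivery of the transferrin receptor for degradation, measured 6.40, 5.91 and 5.93 in CD11c+ and 6.78, 6.35 and 6.49 in CD11c- fractions. It was lower in 3 of 3 mice, although the arrays overlapped, with a difference of -0.46 (SE 0.13, 95% interval -0.80 to -0.12, adjusted p = 0.244). The other 6 of this group, Rab7b, Rab9, Rab9b, Rab29, Rab34 and Rab36, were not above background in either fraction.

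Of the 9 early endosome members the median difference was 0.24. Rab31, which acts between the trans-Golgi network and endosomes, measured 6.21, 6.69 and 7.56 in the CD11c+ fractions of mice A, C and D, against 4.83, 4.36 and 4.36 in the CD11c- fractions. The fractions did not overlap, mouse D had the highest CD11c+ value, and all CD11c- values were below background. The difference of 2.30 (SE 0.37, 95% interval 1.31 to 3.30) had an adjusted p of 0.0966, and counted from the background level the CD11c+ mean was at least 2.37-fold higher. Rab31 passed the threshold without the mouse as a block (adjusted p = 0.0325) and with the mouse as a random block (adjusted p = 0.0259). Rab5c, a regulator of early endosome fusion, varied little between arrays, at 9.25, 9.23 and 9.26 in CD11c+ and 9.02, 9.26 and 8.87 in CD11c- fractions, an interval of -0.19 to 0.60. Rab5a and Rab5b differed by -0.12 and 0.38, both below background. Rab21, which guides the endocytosis of integrins, measured 6.84, 7.34 and 7.20 in CD11c+ and 6.09, 7.32 and 6.64 in CD11c- fractions. It was higher in 3 of 3 mice with overlapping arrays, the pair of mouse C being almost equal, with a difference of 0.45 (adjusted p = 0.442).

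Rab22a, a relative of Rab31 in early and recycling endosomes, measured 7.51, 7.62 and 6.69 in CD11c+ and 7.60, 7.69 and 7.15 in CD11c- fractions of mice A, C and D. It was lower in 3 of 3 mice with overlapping arrays, by -0.21 (adjusted p = 0.647), while its second brightest probe set gave -0.66 (adjusted p = 0.140). The remaining Rab22a probe sets, below background, gave -0.04 and 0.22. Rab24, linked to autophagy, differed by 0.24 with an interval of -0.56 to 1.04. Rab17 and Rab20 were not above background in either fraction, and differed by -0.11 and 0.68.

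Rab4a and Rab11a, which return internalised receptors to the cell surface by a fast and a slow route, were both higher in the CD11c+ fraction of every mouse without passing the test. Rab11a measured 7.46, 7.65 and 7.31 in the CD11c+ fractions of mice A, C and D, against 6.00, 6.46 and 6.39 in the CD11c- fractions. The fractions did not overlap, and the difference was 1.19 (SE 0.16, 95% interval 0.76 to 1.62, adjusted p = 0.0686). Without the block the adjusted p was 0.0274 and with a random block 0.0188. A second Rab11a probe set, at a mean of 2.87 and so below background, gave -0.09 (adjusted p = 0.829), and with the mean of both probe sets the difference was 0.55. Rab4a measured 9.67, 10.30 and 10.15 in CD11c+ and 9.39, 9.48 and 9.11 in CD11c- fractions. These did not overlap, although the CD11c+ value of mouse A stood close to the CD11c- values, and the difference was 0.71 (SE 0.20, 95% interval 0.19 to 1.24, adjusted p = 0.237). The other Rab4a probe set gave 0.44 (adjusted p = 0.436).

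The paralogues of those genes were bright, with differences near 0. Rab11b measured 9.38, 9.36 and 9.26 in CD11c+ and 9.23, 9.60 and 9.54 in CD11c- fractions, with an interval of -0.54 to 0.29. Rab4b averaged 7.99 in CD11c+ and 7.95 in CD11c- fractions, with an interval of -0.49 to 0.57. Whether a paralogue differed from its partner was not tested. Rab35, a regulator of fast recycling, and Rab25, an epithelial relative of Rab11a, differed by 0.18 and 0.04. Rab15 was below background. The median of the 7 recycling endosome members was 0.04.

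**Figure D3:**
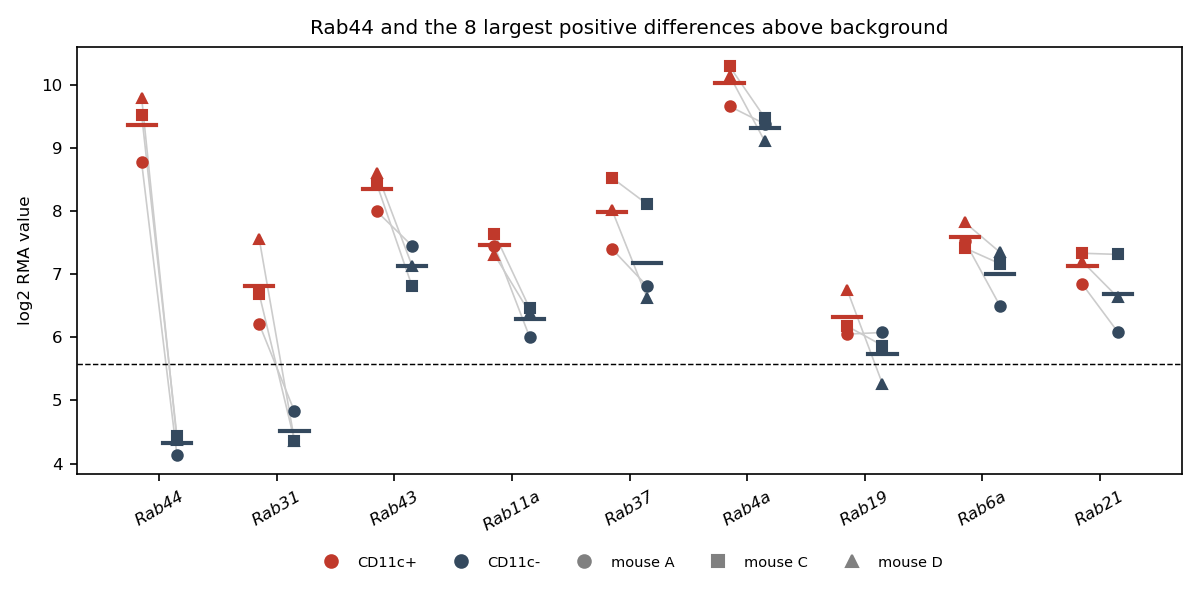
Log2 RMA values (vertical axis) of Rab44 and of the 8 largest positive differences among the other Rab genes with a fraction mean above background, in CD11c+ (red) and CD11c- (blue) arrays; a grey line joins the fractions of a mouse, a bar is the mean of 3 and the dashed line is the background level. Rab44 and Rab31 lie below the line in all CD11c- arrays, and Rab37, Rab19 and Rab21 overlap between the fractions.

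Among the 13 members of the Golgi and endoplasmic reticulum, whose median difference was 0.03, the largest difference was that of Rab43, a Golgi Rab known in mouse dendritic cells for the cross-presentation of antigen. Rab43 measured 8.00, 8.43 and 8.61 in the CD11c+ fractions of mice A, C and D, against 7.45, 6.81 and 7.14 in the CD11c- fractions. The fractions did not overlap, mouse A had the smallest difference, and the fit gave 1.21 (SE 0.26, 95% interval 0.53 to 1.90, adjusted p = 0.153). Its other probe set was also higher in 3 of 3 mice, by 0.78 (adjusted p = 0.165). Rab6a, which governs retrograde transport at the Golgi, measured 7.53, 7.42 and 7.82 in CD11c+ and 6.50, 7.17 and 7.35 in CD11c- fractions. The fractions were narrowly separated, and the difference was 0.58 (95% interval 0.05 to 1.11, adjusted p = 0.329), whereas the other Rab6a probe sets gave 0.09 and 0.22. Those were higher in 2 of 3 mice and in 1 of 3 mice. The Rab6a probe set used is of a class whose probes may bind other transcripts too. Rab19, a less studied Golgi Rab, was higher in 2 of 3 mice, by 0.59 (adjusted p = 0.559).

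Rab2a, which acts between the endoplasmic reticulum and the Golgi, measured 9.48, 9.78 and 9.66 in CD11c+ and 9.92, 9.67 and 9.42 in CD11c- fractions, with an interval of -0.53 to 0.47. Its other 5 probe sets gave 0.05, -0.55, -0.31, -0.13 and -0.45, of which the one at -0.55 was lower in 3 of 3 mice (adjusted p = 0.238). Rab1b, needed for the same route, differed by -0.14 (adjusted p = 0.738). Rab33b, a Golgi Rab that binds the autophagy protein Atg16l1, differed by -0.18 (adjusted p = 0.813), lower in mouse A alone, and without mouse A the sign was reversed, at 0.16. Rab18, of the endoplasmic reticulum and lipid droplets, differed by 0.06, with an interval of -0.78 to 0.90. The remaining 6, Rab1a, Rab2b, Rab30, Rab33a, Rab39 and Rab39b, were below background.

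Of the 7 Rabs of regulated secretion the median difference was -0.01. Rab27a, which docks cytotoxic granules at the plasma membrane, was bright in both fractions, at 8.68, 9.29 and 9.15 in CD11c+ and 9.16, 8.93 and 8.86 in CD11c- fractions of mice A, C and D. The arrays overlapped, with mouse A lower and mice C and D higher in CD11c+, and the difference was 0.06 (95% interval -0.53 to 0.64, adjusted p = 0.931). Its other probe sets gave -0.11, 0.04 and 0.37. Rab27b, a paralogue of mast cell and platelet granules, was below background on all 3 of its probe sets, which gave -0.06, 0.01 and 0.06.

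Rab37, a secretory granule Rab first described in mast cells, measured 7.40, 8.53 and 8.02 in the CD11c+ fractions of mice A, C and D, against 6.81, 8.11 and 6.62 in the CD11c- fractions. It was higher in 3 of 3 mice, but the spread between mice made the arrays overlap, and the difference was 0.80 (SE 0.24, 95% interval 0.17 to 1.44, adjusted p = 0.267). Its other probe set gave 0.25 (adjusted p = 0.893) but did not keep that direction. It was higher in mouse A (6.59 against 4.53) and lower in mice C and D. Rab3a, Rab3b, Rab3c and Rab26, Rabs of synaptic and other secretory vesicles, were below background in both fractions.

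The 6 Rabs of delivery to the plasma membrane and the cilium had the lowest median of the groups, -0.32, and 4 of them (Rab8b, Rab10, Rab23 and Rab28) were lower in the CD11c+ fraction of all 3 mice with no overlap. Of all genes, 12.5% were lower with no overlap and 26.5% were lower in 3 of 3 mice. No gene of the group passed the test. Rab10, known for the insertion of the glucose transporter GLUT4, measured 9.03, 9.002 and 8.76 in CD11c+ and 9.35, 9.26 and 9.20 in CD11c- fractions. Every CD11c+ array lay below every CD11c- array, by a difference of -0.34 (SE 0.13, adjusted p = 0.370). The other 2 probe sets gave -0.24 and -0.21, but each was lower in only 2 of 3 mice. Mouse D carried most of both differences (8.15 against 8.78, and 8.19 against 8.77). Rab8b, of exocytic transport, measured 7.82, 7.69 and 7.61 in CD11c+ and 7.82, 7.87 and 8.31 in CD11c- fractions, so the fractions barely separated and mouse D carried most of the difference of -0.29 (adjusted p = 0.606). Rab23, an inhibitor of Hedgehog signalling, measured 5.22, 5.28 and 5.30 in CD11c+ and 5.30, 6.06 and 5.61 in CD11c- fractions (-0.39, adjusted p = 0.486), around the background level. Rab28 was below background, and its -0.55 came mainly from mouse D. Rab8a, which works in ciliary membrane delivery, differed by 0.16 with an interval of -0.33 to 0.66, and Rab13, of tight junctions, was below background.

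The remaining pair, Rab40b and Rab40c, carry a SOCS box that recruits a ubiquitin ligase. Rab40c differed by -0.17 (adjusted p = 0.776), and without mouse A by 0.04, with the sign reversed, while its dimmer probe set gave -0.67. Rab40b was below background.

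**Figure D4:**
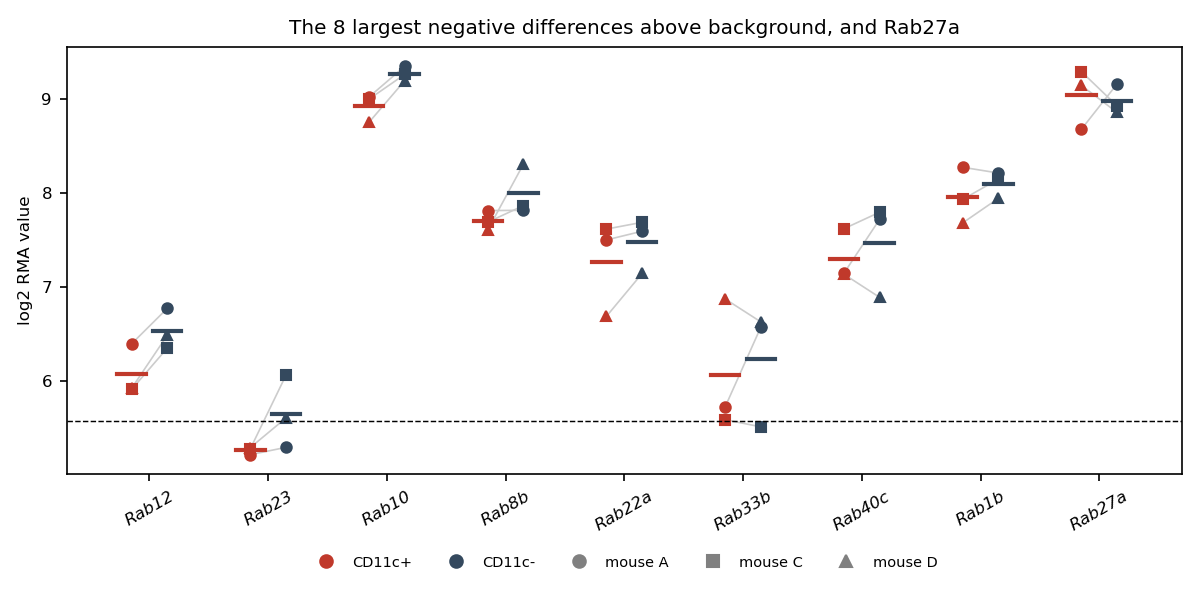
Log2 RMA values (vertical axis) of the 8 largest negative differences among the Rab genes with a fraction mean above background, and of Rab27a, in CD11c+ (red) and CD11c- (blue) arrays; a grey line joins the fractions of a mouse, a bar is the mean of 3 and the dashed line is the background level. Rab10 is separated between the fractions, Rab8b and Rab23 are barely so, and Rab27a averages 9.04 in CD11c+ and 8.98 in CD11c-.

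Where a gene had several probe sets, the others were compared with the one used. There were 26 such genes with 44 further probe sets, of which 20 were above background, and 16 of those 20 had the sign of the probe set used. Of all 99 probe sets only that of Rab44 passed the test.

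The proteins that load, switch off and use Rabs were taken from 4 lists, of which 113 of 127 genes were measured. In all, 2 were higher in CD11c+ (Sytl3 and Myo5a; 1.77%, against 1.40% of all genes), 1 was lower (Rabgap1l; 0.885%, against 0.222%) and 110 did not pass. In 3 of 3 mice 21 were higher (18.6%, against 12.6% of all genes) and 23 lower (20.4%, against 26.5%). Sytl3, a synaptotagmin-like effector that binds Rab27a, measured 8.16, 8.49 and 8.87 in the CD11c+ fractions of mice A, C and D, against 6.30, 5.94 and 6.49 in the CD11c- fractions. The fractions lay well apart, by 2.26 (SE 0.19, adjusted p = 0.0245). Myo5a, a myosin motor that moves Rab27a- and Rab11-bearing vesicles, measured 6.13, 5.06 and 5.45 in CD11c+ and 4.54, 3.61 and 4.17 in CD11c- fractions, a difference of 1.44 (SE 0.14, adjusted p = 0.0342), with both means below background. Rabgap1l, a GTPase-activating protein, measured 7.21, 7.05 and 7.36 in CD11c+ and 8.50, 8.43 and 8.50 in CD11c- fractions, a difference of -1.27 (SE 0.13, adjusted p = 0.0419). None of these 3 genes passed once any of the mice was left out: the adjusted p was 0.0557 to 0.114 for Sytl3, 0.0725 to 0.186 for Myo5a and 0.0928 to 0.204 for Rabgap1l. Myo5a also missed the threshold without the block (adjusted p = 0.128), with a random block (0.0819), after cyclic loess (0.0562) and after median centring (0.0523), and with the mean of its probe sets its difference was 0.51 (0.174). Rabgap1l missed it after cyclic loess (adjusted p = 0.0562) and with the mean of its probe sets (0.0684). The basophil and monocyte marker lists were high in the same CD11c+ arrays, and their part in these results was not tested.

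Other effectors of the granule route were less separated. Unc13d, the Munc13-4 protein that primes cytotoxic granules with Rab27a, was higher in 3 of 3 mice by 0.59 (adjusted p = 0.361), and Sytl1 and Sytl2 differed by 0.12 and 0.14. Further secretory effectors of the list were below background with negative differences: Sytl4 -0.08, Myrip -0.08, Mlph -0.13, Exph5 -0.24, Rph3a -0.28, Rims1 -0.17 and Rims2 -0.08. The 44 effectors had a median of -0.08, and the golgin Gcc2 was at the low end with -1.03 (adjusted p = 0.193). The 32 GTPase-activating proteins had a median of 0.03. Tbc1d8 measured 7.98, 8.86 and 8.84 in CD11c+ and 6.04, 5.52 and 5.48 in CD11c- fractions, well apart, with a difference of 2.88 that missed the threshold (adjusted p = 0.0534), and Tbc1d9, below background in CD11c-, was at least 1.31-fold higher (adjusted p = 0.0794). For both, mouse A had the lowest CD11c+ value, which for Tbc1d9 (4.94) was below background. Both passed the threshold with a random block, a trended prior variance and a filter on dim probe sets. Tbc1d8 also passed without the block, and Tbc1d9 with the mean of its probe sets. Neither passed after cyclic loess, after median centring or with any mouse left out.

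None of the 30 exchange factors passed, with a median of -0.00078. Dennd5a, an exchange factor for Rab39 in human cells, lay at 0.82 (adjusted p = 0.103). Among the alternatives it passed the threshold with a random block only. Dennd2d lay at -1.03 (adjusted p = 0.0979). Of the 7 genes of prenylation and GDP dissociation inhibition none passed either. Chm, the Rab escort protein, differed by 0.57, Gdi2, a GDP dissociation inhibitor, by 0.28, and Rabggtb, a subunit of the prenylating enzyme, by -0.45. The medians of these partner lists lay between -0.08 and 0.06, against -0.09 for all genes.

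**Figure D5:**
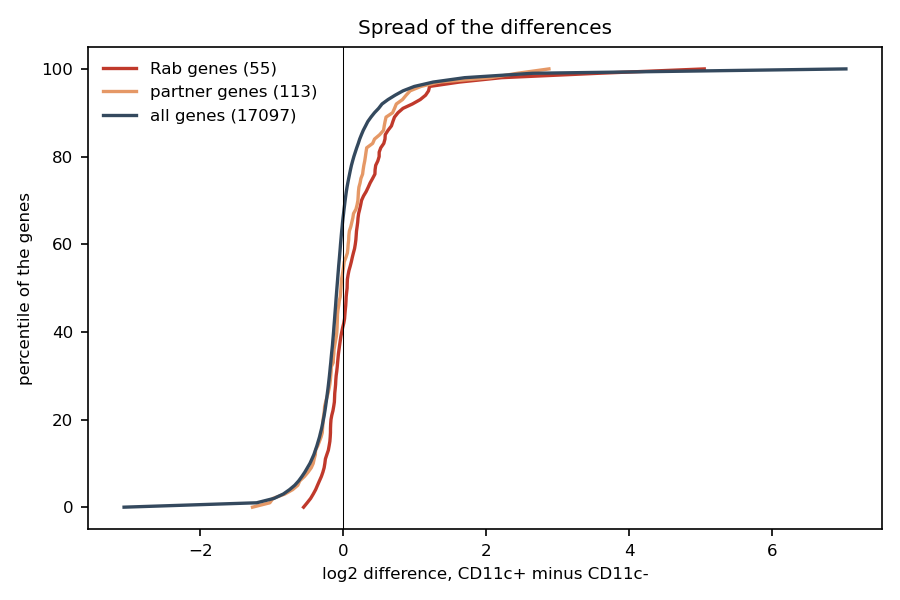
Percentile of the genes (vertical axis) against the log2 difference, CD11c+ minus CD11c- (horizontal axis), for the 55 Rab genes, the 113 partner genes and all 17097 genes. The Rab curve runs to the right of the others around its median of 0.06 and ends at 5.05, the value of Rab44.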

How the data were processed

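The deposited values were log2 signals that the authors made by RMA from 6 single-colour Affymetrix arrays. The submitters' processing notes name RMA and limma, with versions not given in the sources used. RMA equalises the arrays (medians 4.40 to 4.54), so a change in total RNA per cell cannot be seen, and amplification from 300 cells may add scatter at dim probe sets. The number of arrays limits the precision.

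From these values limma 3.58.1 in R 4.3.3 was fitted to all 45141 probe sets, two-sided, with the mouse as a fixed block, leaving 2 residual degrees of freedom. GEO's labels assign both fractions of a pair to the same mouse; deviations of paired arrays correlated at 0.122, 0.0758 and 0.109, and those of other mice at -0.0860 to -0.0217. The platform annotation, which can be old, gives 28898 probe sets 1 gene symbol, 551 several symbols and 15692 no symbol. No coordinates are given, since no build is named with the values. The scripts were tested on simulated data.

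The Rab genes, roles, partner lists and marker lists were chosen with earlier results of these data known. Full values were given for members past the threshold and for up to 8 of the largest positive and 8 of the largest negative differences among the other members above background in a fraction, and of each partner list for genes past the threshold and up to 3 at each end; Rab27a and other members were named for their role. Alternatives were the block, normalization, prior variance, a filter on dim probe sets, the probe set of a gene, the threshold and leaving out each mouse.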

Additional observations from a re-analysis of the deposited data

How the results depend on the processing

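Of the 45141 probe sets, 432 were higher in CD11c+ and 76 lower at an adjusted p under 0.05, with 1 Rab gene higher, none lower and 3 partner genes past the threshold. Without the replicate block these were 684 higher and 211 lower probe sets and 3 Rab genes (Rab11a, Rab31 and Rab44), and with a random replicate block 812, 316 and the same 3 Rab genes, with 5 partner genes. A trended prior variance gave 684 and 207 probe sets and 5 partner genes, and an adjusted p under 0.10 gave 845 and 380 probe sets, 3 Rab genes and 7 partner genes. Cyclic loess gave 41 lower probe sets and 1 partner gene, and a filter on dim probe sets, which left 36 Rab genes, gave 140 lower probe sets and 5 partner genes. Leaving out each mouse gave 0 to 348 higher and 0 to 44 lower probe sets, 0 to 1 Rab genes and 0 to 0 partner genes. The 0 came without mouse A, where limma called no probe set, although 2796 were higher and 2767 lower at an unadjusted p under 0.05.

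Rab44 differed by 4.87 to 5.26 under the 10 alternatives, with adjusted p-values of 0.000359 to 0.0848, and missed the threshold only without mouse A. Rab33b and Rab40c were reversed without replicate 1, at 0.16 and 0.0353, and were at -0.39 and -0.37 without replicate 3. The lowest value of Rab40c was -0.42, with the mean of its probe sets. Of the 200 comparisons of 17 Rab and 3 partner genes with their alternatives, 177 kept direction and side of the threshold, 17 lost the call, 4 gained one and 2 were reversed. The median of the Rab genes was 0.147 without mouse A, -0.0376 without mouse C, -0.0179 without mouse D and 0.133 after cyclic loess, against 0.0566 as reported, so its sign changed without mouse C or mouse D. The median of all genes moved too. It was -0.0335, -0.104, -0.113 and -0.00448 in the same order, against -0.0864 as reported. The Rab median lay above it in each of these settings. The causes were not tested. The number of mice limits what can be seen, and the median SE of a Rab difference was 0.197.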

Other observations

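Genes related to the Rab family but outside its naming pattern were measured too. In CD11c+ minus CD11c- terms, Rabl3 differed by -0.08, Rabl6 by -0.22, Rasef by -0.12, and Ift22 and Ift27, small GTPases of intraflagellar transport, by 0.39 and 0.32. None passed the test, with limma adjusted p-values of 0.663 to 0.880. A probe set that names Rab20 together with a second transcript measured 3.97, 4.10 and 3.93 in the CD11c+ fractions of mice A, C and D, against 4.43, 4.35 and 3.92 in the CD11c- fractions (difference -0.23, adjusted p = 0.619), below background.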
